A study of Homo sapiens with 18 samples.

Results

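NCI-H1299 cells given a TBX5 plasmid were compared with the pooled control cells of the same experiment, over 3 TBX5 libraries and 6 control libraries of the 18 RNA-seq libraries in the series. NCI-H1299 is a human non-small-cell lung cancer line, labelled here as lung adenocarcinoma. The groups were mouse HA-tagged pCGN-Tbx5 (TBX5, n = 3), the empty vector (EV, n = 3) and cells labelled Ctl (n = 3), whose treatment the labels do not name. The comparison was set beside the human HA-tagged pCGN-TBX3 and the human Flag-tagged pORF plasmids of TBX2 and TBX4 (n = 3 each), so that species cannot be told apart from the T-box factor in any comparison between plasmids, nor can backbone and tag against TBX2 and TBX4. All plasmids were transient and Lipofectamine-borne, and by the study's methods not every cell took them up, so each library mixes cells with and without plasmid. Fewer responding cells and a smaller response per cell cannot be told apart in such libraries. The labels do not say whether replicates a, b and c were separate cultures, so p-values measure the spread between these libraries, which may be technical.

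T-box factors are DNA-binding transcription factors of development that share a domain which reads a short motif, AGGTGTGA, in regulatory DNA. TBX5 is best known from the heart, where it works with NKX2-5 and GATA4, from the forelimb bud, and from the lung bud, where it acts with TBX4 upstream of FGF10 and WNT signals. TBX2 and TBX3 act mainly as repressors, while TBX4 and TBX5 are closely related to each other and are mainly activators.

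Of the 63677 genes in the count table, 15576 were tested, each with over 5 counts in 10 libraries or more, and 97.5% of those had a gene symbol. Libraries held 7365221 to 11743179 counts, and the TBX5 libraries 7960510, 7387816 and 8016417. A single gene, ENSG00000266658, took 22.5% of the counts in TBX5 replicate a, 53.5% in b and 52.7% in c, against 12.4% to 40.2% in the controls and 13.2% to 18.6% with TBX4. That left 5055388 and 5390407 counts of effective depth in TBX5 b and c, against 9040329 in a. The main counts are also given without single TBX5 libraries, and those against TBX4 with this share as a covariate. Levels are CPM, the counts scaled to a common library size by TMM. Log2 fold changes are edgeR's with their standard error (SE), and a gene passed the test where its Benjamini-Hochberg adjusted p in edgeR's quasi-likelihood fit was under 0.1. The markers of the labelled tumour type were nearly absent. The 7 lung adenocarcinoma and alveolar type 2 markers, among them NKX2-1, NAPSA and the surfactant genes, summed to 3 to 17 counts per control library and 3 to 9 with TBX5, and the epithelial markers EPCAM, CDH1 and KRT19 had at most 3 counts in any control, while KRT8 and KRT18 were well read. Leukocyte markers summed to 7 to 17 counts in controls and 3 to 6 with TBX5, endothelial markers to 0 to 6 and 3 to 6, fibroblast markers to 3 to 11 and 4 to 11, and neuroendocrine markers to 25 to 58 and 18 to 31.

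The plasmid itself was read on the human TBX5 gene (ENSG00000089225, chromosome 12 from 114791716 to 114846247 of GRCh37). It had 1161, 1163 and 1302 counts in TBX5 replicates a, b and c, no counts in the 6 controls, and at most 1 count in any library of the other plasmids. Its level of 200 ± 62.3 CPM (SD, n = 3) was at least 585-fold above the control floor, taken as 3 counts per library. The plasmid carries the mouse sequence, so the count covers only reads that aligned to the human gene and cannot be set against the 3 human plasmids. TBX5 fell outside the filter on counts, since it was present in 3 libraries.

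Against the 6 controls, 1021 genes were higher with TBX5 and 954 were lower, which is 6.55% and 6.12% of the genes tested. With TBX5 replicate c left out the counts were 592 and 475, and with b left out 687 and 552. Most changes were small. Of the higher genes 143 changed by at least 1 on the log2 scale, and of the lower genes 33 did. Pooling the controls was not neutral, since 60 genes (0.385%) differed between EV and Ctl cells. Against EV alone 1397 genes differed with TBX5 (8.97%), and against Ctl alone 1192 (7.65%). Of the genes above, 427 higher and 304 lower passed the test against each kind of control separately. Scaling by library totals, which takes ENSG00000266658 fully into the denominator, moved the median log2 fold change of all genes to -0.31 and left 37 higher and 54 lower genes, so that 40.7% of the called genes were higher in place of 51.7%. Of the called genes 81.2% were higher where a log2 fold change of at least 1 was required.

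Which of these changes were particular to TBX5 was asked by comparing the TBX5 libraries directly with those of each other plasmid. TBX5 differed from TBX2 in 886 higher (5.69%) and 1004 lower genes (6.45%), and from TBX3 in 485 higher (3.11%) and 669 lower genes (4.3%). From TBX4 it differed in 67 higher (0.43%) and 17 lower genes (0.109%). The total against TBX4 was 17 without TBX5 replicate c, 28 without b and 100 without a, and 37, 31 and 39 without TBX4 a, b and c. It was 22 with the share of ENSG00000266658 as a covariate, and 6534 by library totals. Statements below that a gene did not pass the test against TBX4 rest on this comparison, in which few genes passed. Of the 1021 genes above the controls, 553 did not pass the test against any other plasmid in either direction, and of the 954 below the controls, 655 did not. Counted by direction, 644 of the higher genes exceeded none of the other plasmids, 213 exceeded 1, 111 exceeded 2, and 53 exceeded all 3. Those of the 644 that were not among the 553 were lower with TBX5 than with another plasmid. Among the lower genes, counted where TBX5 lay below the other plasmid, those numbers were 730, 173, 48 and 3.

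The 53 higher genes (0.34% of the genes tested) and 3 lower genes (0.0193%) that passed all 4 tests in 1 direction are called TBX5-particular here. The 4 comparisons share the 3 TBX5 libraries, so their calls are not independent of each other. The log2 fold changes of the 53 against the controls ran from 0.25 to 3.79 with a median of 0.71, and against TBX4 from 0.26 to 2.56. In 51 of the 53 the lowest TBX5 library lay above the highest of the other 15 libraries, and MERTK and KRT8 were the exceptions. That separation follows in large part from the choice of the genes on these libraries. None of the 53 differed between EV and Ctl, near the share of 0.385% over all tested genes. Against each kind of control alone 48 passed the test, on libraries that had also served to choose the genes. Of the 53, 50 were protein coding (94.3%, against 78.9% of all tested genes). Their median control level was 13.6 CPM, and that of all tested genes 10.5 CPM.

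The number of TBX5-particular genes depended on single libraries. With TBX5 replicate c left out 11 of the 53 still passed all 4 tests, with b left out 21 and with a left out 35. With TBX4 replicate a, b or c left out 24, 23 and 24 passed. With any 1 control, TBX2 or TBX3 library left out, 48 to 52 passed. With TBX5 a as the only TBX5 library, where the spread comes from the other groups alone and TBX5 is assumed to vary like them, 11 passed, with the share of ENSG00000266658 as a covariate 14, and by library totals 3. In every one of the 18 fits with a library left out all 53 stayed above the controls and above each other plasmid in sign, whereas by library totals 23 did. The signs in the 18 fits follow in large part from the choice of the genes on these libraries. Of the 53, 11 passed all 4 tests in each of those 18 fits. Among them were NPTX1, NOG, KCNA7, ROR1, SOX4, CTSB, ENC1, UVSSA, CAB39 and ANKRD20A5P. The last 5 are named after their values were seen, and NOG and KCNA7 passed the filter only with their TBX5 libraries counted.

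**Figure D1:**
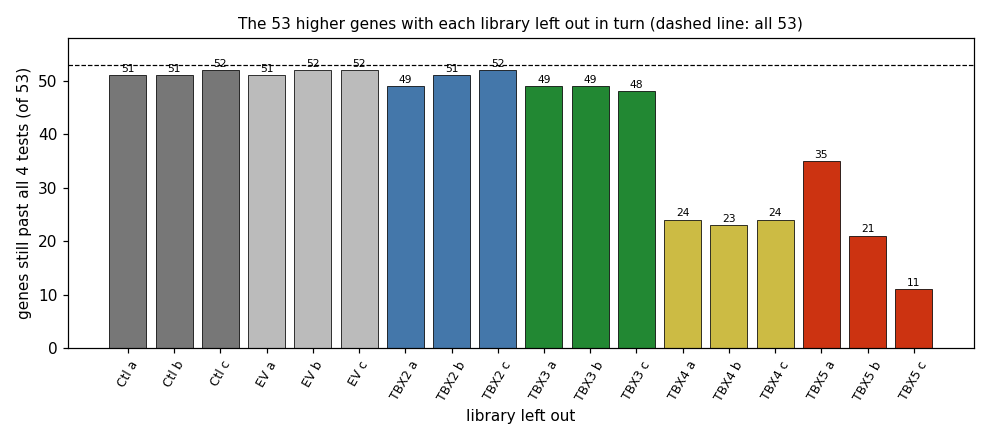
Each bar is the number of the 53 higher TBX5-particular genes that still passed all 4 tests (y axis) when the library named on the x axis was left out, coloured by group. Bars fall to 35, 21 and 11 without TBX5 a, b and c and to 23 or 24 without a TBX4 library, and stay between 48 and 52 for the rest.

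NPTX1 and NOG led the particular genes by the smallest of their 4 log2 fold changes. NOG, KCNA7, AFAP1L2 and HIC1 passed the filter only with their TBX5 libraries counted, so their calls were in part fixed in advance. NPTX1 (ENSG00000171246, chromosome 17 from 78440634 to 78451643) encodes neuronal pentraxin 1, a secreted protein that clusters glutamate receptors at synapses. It was at 8.08, 9.50 and 9.28 CPM in the TBX5 libraries, against 0.395, 0.660 and 0.797 CPM as the lowest, median and highest control. The TBX4 libraries had 2.00, 1.24 and 1.2 CPM, and those of TBX2 and TBX3 lay in the range of the controls except for 1 TBX2 library at 1.10 CPM. NPTX1 was 13.8-fold above the controls (log2 fold change 3.79, SE 0.21, edgeR adjusted p = 6.27e-11) and 5.89-fold above TBX4 (2.56, SE 0.21, edgeR adjusted p = 8.87e-09). TBX4 also raised it above the controls, by 1.23 on the log2 scale.

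NOG (ENSG00000183691, chromosome 17 from 54671060 to 54672972) encodes noggin, a secreted inhibitor that binds BMP ligands and keeps them from their receptors. It had 6.19 CPM in TBX5 a, 7.72 in b and 2.60 in c, against 0.198 to 0.963 CPM in the 6 controls and 1.68, 1.55 and 0.923 CPM with TBX4. TBX5 replicate c was the low library of the group but stood above every other library. The log2 fold change was 3.35 against the controls (SE 0.33, edgeR adjusted p = 5.38e-07) and 1.98 against TBX4 (SE 0.32, edgeR adjusted p = 0.00182). With TBX4 it was 1.37 above the controls, and with TBX2 and TBX3 it did not pass the test.

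KCNA7 (ENSG00000104848, chromosome 19 from 49570654 to 49575956), a voltage-gated potassium channel of the Kv1 family found in heart and skeletal muscle, was almost constant among the TBX5 libraries. They had 3.76, 3.56 and 3.90 CPM, against 0.265 to 0.586 CPM in the controls and 0.639, 1.24 and 1.11 CPM with TBX4. Its log2 fold changes were 3.25 against the controls and 1.90 against TBX4 (SE 0.28 and 0.30). TBX4 also raised it above the controls, by 1.35. Another potassium channel, KCNK6, a background channel of the two-pore family, had 3.98, 5.54 and 5.19 CPM with TBX5. Its 6 controls lay between 1.33 and 2.39 CPM and its TBX4 libraries between 1.94 and 2.12 CPM. KCNK6 fell with TBX2, by 1.00 on the log2 scale, while it rose by 1.42 with TBX5.

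**Figure D2:**
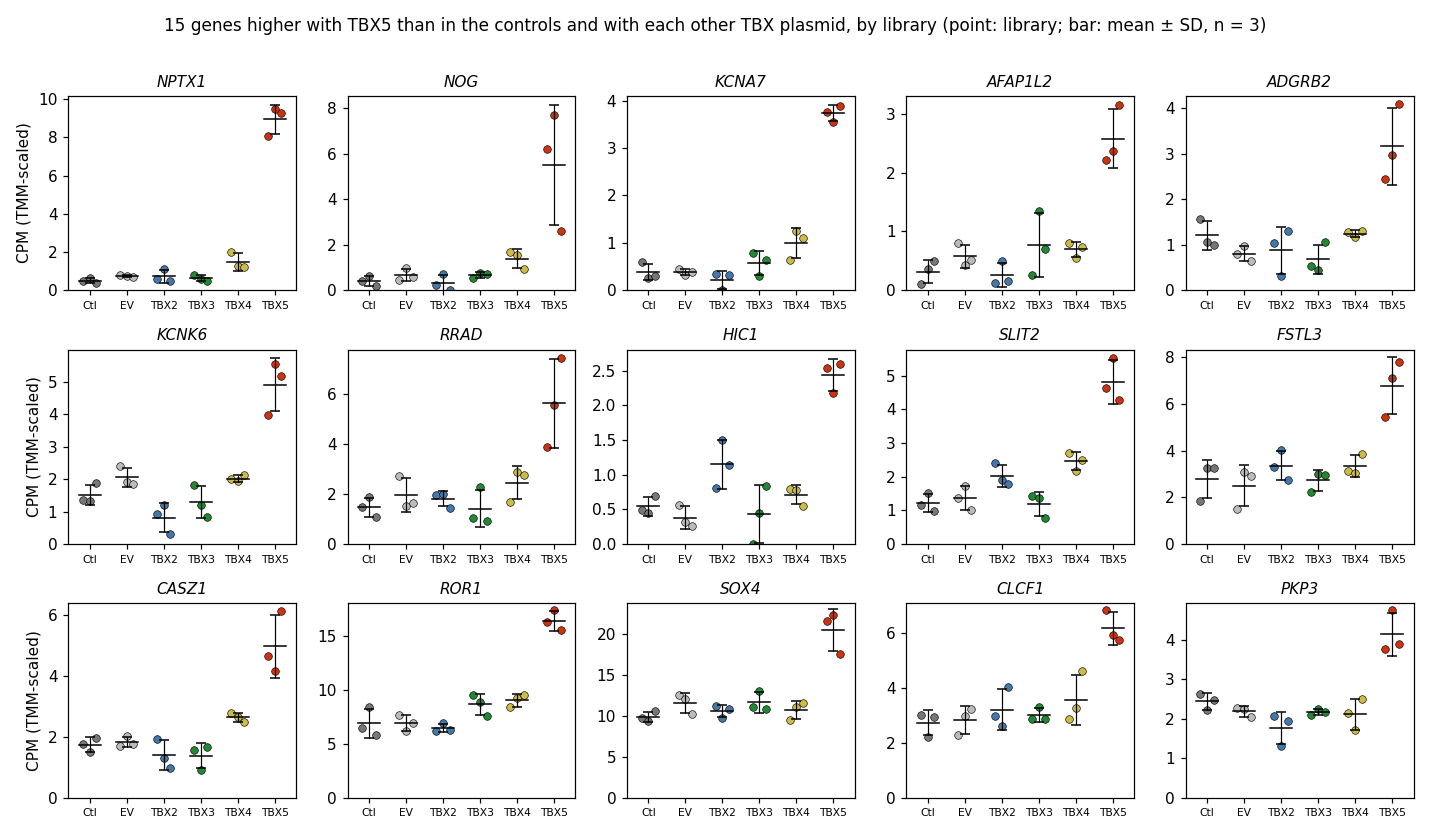
The 15 TBX5-particular genes with the largest smallest log2 fold change are drawn 1 to a panel, with CPM on the y axis and the 6 groups on the x axis. Points are libraries and bars are the mean ± SD (n = 3). In every panel the 3 TBX5 points lie above the 15 others, and for NPTX1, NOG, KCNA7 and SLIT2 the TBX4 mean is the next highest.

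The secreted factors among the 15 were NOG, NPTX1, SLIT2, FSTL3 and CLCF1. SLIT2 encodes a guidance ligand of the ROBO receptors and had 4.65, 5.54 and 4.27 CPM with TBX5, against 0.989 to 1.71 CPM in the controls and 2.17 to 2.72 CPM with TBX4. Its log2 fold change was 1.90 against the controls and 0.96 against TBX4. TBX4 and TBX2 also raised it above the controls, by 0.94 and 0.68. FSTL3, an antagonist of activins and myostatin, had 5.42, 7.12 and 7.79 CPM, against 1.48 to 3.27 CPM in the controls. CLCF1, a cytokine of the CNTF receptor, had 6.86, 5.93 and 5.75 CPM, against 2.21 to 3.25 CPM. FSTL3 and CLCF1 exceeded the controls by 1.28 and 1.15 (SE 0.21 and 0.18) and TBX4 by 0.99 and 0.83 on the log2 scale, and neither passed the test with another plasmid against the controls.

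Membrane proteins and receptors followed. ROR1 (ENSG00000185483, chromosome 1 from 64239688 to 64647181) encodes a receptor tyrosine kinase-like receptor for WNT5A that is low in most adult tissues and present in many tumours. It had 16.3, 17.4 and 15.6 CPM in the TBX5 libraries, against 5.83, 6.69 and 8.41 CPM as the lowest, median and highest control and 8.38 to 9.51 CPM with TBX4. The TBX5 libraries lay above all others. TBX4 also raised ROR1 above the controls, by 0.38 on the log2 scale, though the lowest TBX4 library lay within their range. ROR1 rose 2.36-fold over the controls (log2 fold change 1.24, SE 0.12, edgeR adjusted p = 5.11e-07) and 1.81-fold over TBX4 (0.86, SE 0.13, edgeR adjusted p = 0.000564). ADGRB2, an adhesion G-protein-coupled receptor of brain, had 2.43, 2.97 and 4.08 CPM with TBX5, against 0.636 to 1.56 CPM in the controls. PKP3, a plaque protein of desmosomes, had 3.76, 4.75 and 3.90 CPM, against 2.04 to 2.64 CPM.

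ROR2, the sister receptor of ROR1, was the other gene besides TBX5 that lay outside the filter and was read in every TBX5 library but hardly elsewhere. Of 19 genes outside the filter with over 5 counts in each TBX5 library, only TBX5 and ROR2 had at most 3 counts in each of the other 15. ROR2 (ENSG00000169071, chromosome 9 from 94325373 to 94712510) had 12, 9 and 7 counts with TBX5, no count in the 6 controls, 1, 3 and 1 with TBX4 and 0 or 1 with TBX2 and TBX3. Its level of 1.47 ± 0.270 CPM (SD, n = 3) was at least 4.3-fold above the control floor of 3 counts per library, and it was not tested. WNT5A, a ligand of both receptors, had no counts in any control or TBX5 library.

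**Figure D3:**
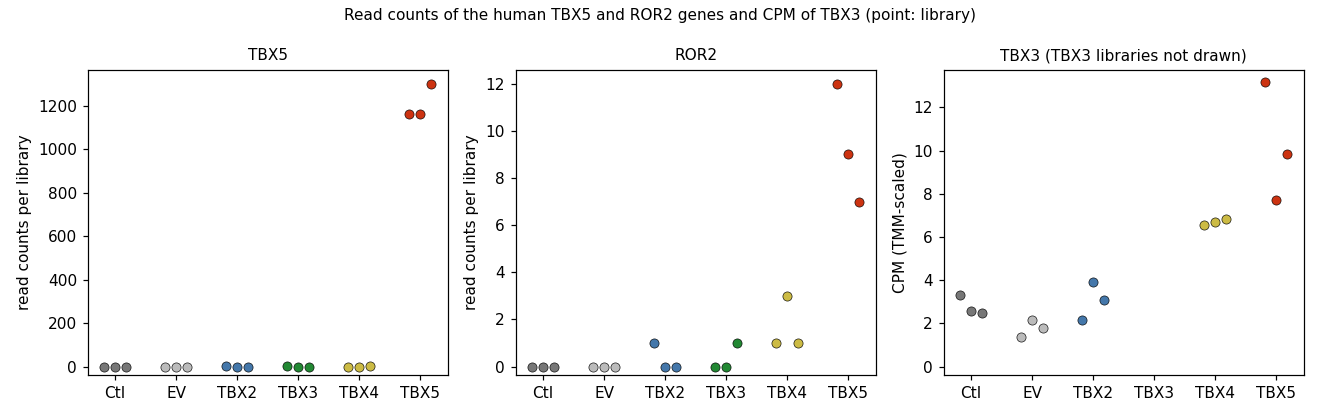
Read counts per library of TBX5 and ROR2, and CPM of TBX3, are drawn on the y axes against the 6 groups, 1 point per library, with the TBX3 plasmid libraries left off the third panel. TBX5 is seen in its own 3 libraries at 1161 to 1302 counts, ROR2 at 7 to 12 counts there and at most 3 elsewhere, and TBX3 at 7.72 to 13.2 CPM with TBX5 above 6.55 to 6.83 CPM with TBX4.

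SOX4, HIC1 and CASZ1 were the transcription factors among the 15. SOX4 (ENSG00000124766, chromosome 6 from 21593982 to 21598850), a factor of progenitor cells and of epithelial-mesenchymal transition, had similar differences from every other plasmid. It had 21.6, 22.4 and 17.6 CPM with TBX5, and 9.38 to 13.1 CPM over the other 15 libraries. Its log2 fold changes were 0.95 against the controls, 0.97 against TBX2, 0.84 against TBX3 and 0.95 against TBX4 (SE 0.11 and 0.12 for the controls and TBX4), with edgeR adjusted p-values of 6.76e-06 and 3.3e-05 against the controls and TBX4. With the other 3 plasmids it lay between -0.02 and 0.11 against the controls. HIC1, a zinc-finger repressor and tumour suppressor that is often methylated in cancer, had 2.54, 2.18 and 2.60 CPM with TBX5, against 0.255 to 0.692 CPM in the controls. It also rose with TBX2, by 1.36. CASZ1, a zinc-finger factor of heart and blood vessel development, had 4.65, 4.15 and 6.12 CPM, against 1.504 to 2.03 CPM. TBX4 also raised CASZ1 above the controls, by 0.56. Of the exon bases of HIC1 29.8% and of CASZ1 32.3% lie under another gene as well.

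AFAP1L2 and RRAD complete the 15. AFAP1L2, an adaptor protein of actin filaments and SRC signalling, had 2.21, 2.37 and 3.15 CPM with TBX5, against 0.0977 to 0.797 CPM in the controls, and did not pass the test with any other plasmid. RRAD, a small GTPase that inhibits calcium channels in muscle, had 3.87, 5.54 and 7.42 CPM, against 1.09 to 2.73 CPM. RRAD, ADGRB2, SLIT2 and CASZ1 each lost a call when any 1 TBX4 library was left out, and SLIT2 and CASZ1 also when any 1 TBX5 library was.

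Others of the 53 higher genes are named here after their values were seen and ordered by what they do. Ligands and other secreted proteins were KITLG, the ligand of KIT, TGFB2, and SERPINI1, a serine protease inhibitor. SERPINI1 had 9.07, 8.31 and 10.95 CPM with TBX5, 4.71 to 6.07 with TBX4 and 1.24 to 2.54 in the controls, so that both plasmids raised it and TBX5 exceeded TBX4 by 0.76 on the log2 scale. Receptors and adhesion molecules were EPHB2, MERTK, LRP8, FGFRL1, NLGN2, PCDH7 and the collagen COL6A1. Of these EPHB2 changed most, from 2.96 to 4.94 CPM in the controls to 11.1, 13.1 and 15.4 CPM. TBX4 also raised EPHB2 above the controls, by 0.85 on the log2 scale. MERTK lost a call with DESeq2, and with EV alone or Ctl alone as the controls. It kept all 4 calls in 11 of the 18 fits with a library left out. The protease CTSB (cathepsin B) had 90.3, 86.4 and 96.5 CPM with TBX5 and 50.5 to 63.4 CPM over the other 15 libraries, a log2 fold change of 0.71 against the controls (SE 0.06, edgeR adjusted p = 1.98e-07) and 0.56 against TBX4.

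Regulators of transcription in this group were KLF2, HBP1 and MYBL1, and regulators of small GTPases and the cytoskeleton were TIAM1, ARHGAP26, FGD6, KIFC3 and the keratin KRT8. MYBL1 lay nearest the threshold of the 53, with an edgeR adjusted p of 0.0962 against TBX4 and 149.1, 147.2 and 157.3 CPM with TBX5 against 116.5 to 137.0 CPM in the controls. It kept all 4 calls in 4 of the 18 fits with a library left out. Metabolic and redox genes were PFKFB3, an activator of glycolysis, ELOVL2, which elongates polyunsaturated fatty acids, CYBA, a subunit of NADPH oxidases, and CYP1B1. DNA repair and ubiquitin genes were UVSSA, DCLRE1A, CUL4B and MAEA. LRRC8A is a subunit of the volume-regulated anion channel, and LUCAT1, a long noncoding RNA, rose with each other plasmid too. ENC1, CAB39, ESYT2, DOP1A and KIAA0930 were of other kinds. CAB39 had 82.5, 77.5 and 82.4 CPM, against 45.9 to 54.3 CPM in the controls, and rose with each other plasmid as well, by 0.24 to 0.28 on the log2 scale. For ANKRD20A5P, a pseudogene with close copies, and RP5-1024G6.8, whose exons lie wholly within LRP8, reads could be shared with those genes, and their counts are uncertain.

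The 53 genes were not all silent with the other plasmids. Against the same 6 controls, 20 of them also rose with TBX4, 6 with TBX2 and 5 with TBX3, while 14 fell with TBX2, 6 with TBX3 and 1 with TBX4. For 20 genes no other plasmid gave a change past the test in either direction. The mean of TBX4 lay above that of the controls for 38 of the 53, that of TBX3 for 26 and that of TBX2 for 22. These comparisons share the 6 controls. The shares of all tested genes that passed in them are not given here, and whether the 53 genes depart from those shares was not tested.

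**Figure D4:**
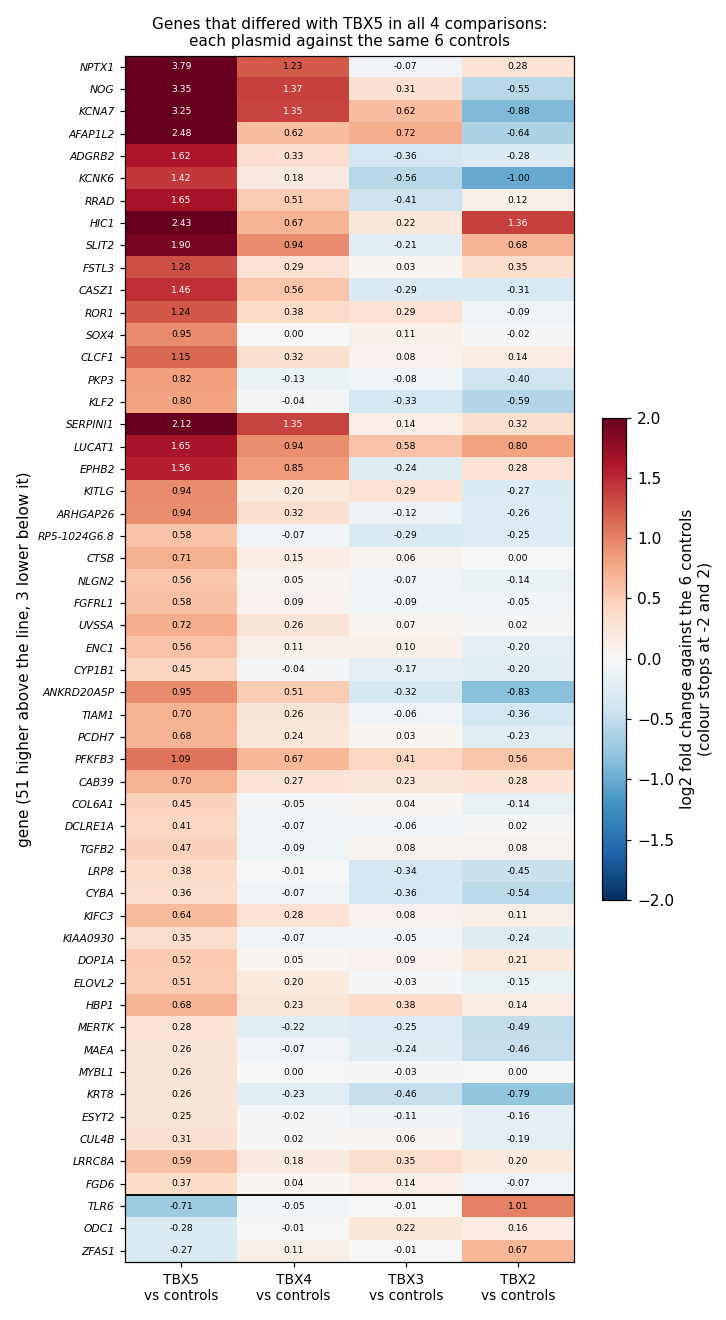
Log2 fold changes of 51 of the 53 higher genes (above the line) and the 3 lower genes (below it) are given for each plasmid against the same 6 controls, TBX5 in the first column, with colour ending at -2 and 2. The TBX5 column is the highest in every row above the line, which the choice of the genes fixes, TBX4 is next for NPTX1, NOG and SERPINI1, and KCNK6, ANKRD20A5P and KRT8 are lower with TBX2.

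The 3 lower particular genes were TLR6, ODC1 and ZFAS1. TLR6, a Toll-like receptor for bacterial lipopeptides, had 5.42, 4.95 and 3.90 CPM with TBX5, against 6.64 to 8.88 CPM in the controls, and rose with TBX2 by 1.01. ODC1, the enzyme that begins polyamine synthesis, had 190.6, 167.3 and 177.0 CPM, against 198.0 to 226.1 CPM. ZFAS1, a host gene of small nucleolar RNAs, overlapped the controls with 66.3, 51.2 and 56.6 CPM against 63.5 to 76.3 CPM. Their log2 fold changes were -0.71, -0.28 and -0.27, and all 3 lost a call when TBX4 replicate a or c or TBX5 replicate b or c was left out. All 3 rose with TBX2, ODC1 by 0.16 and ZFAS1 by 0.67.

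Promoter windows in RefSeq (GRCh38.p14, each 300 bases, from 250 before to 50 after a start site) were searched for the letters AGGTGTGA, and for AGGTGTNA, which includes it, on both strands. Windows were found for 36 of the 53 higher genes and all 3 lower genes. The 17 without 1 included NPTX1 and NOG. Of the 36 genes 1 held AGGTGTGA (2.78%), against 1.05% of 10734 tested genes with a window, and 3 held AGGTGTNA (8.33%), against 2.7%. None of the 3 lower genes held either. By window, AGGTGTNA was in 6.25% of 48 windows, against 1.95% of 15623. None of the 15 named genes was among the matches, but NPTX1, NOG, RRAD, HIC1, CASZ1, CLCF1 and PKP3 of the 15 had no window to search. The 3 genes that matched are shown, chosen after the search, to let the letters be seen in place. The motif is in capitals, and the 250 bases before the start site are printed on the strand of the gene. The 3 genes are SERPINI1 (chr3:167735471-167735720, + strand), NLGN2 (chr17:7407595-7407844, + strand) and CUL4B (chrX:120575533-120575782, - strand). The match begins 230, 33 and 33 bases before the start site. A match is a description of letters and not of a bound site.
SERPINI1: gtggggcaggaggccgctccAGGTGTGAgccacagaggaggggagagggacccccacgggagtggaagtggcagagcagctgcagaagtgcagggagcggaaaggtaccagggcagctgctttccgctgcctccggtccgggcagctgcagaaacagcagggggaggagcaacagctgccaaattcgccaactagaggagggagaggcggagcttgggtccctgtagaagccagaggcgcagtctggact
NLGN2: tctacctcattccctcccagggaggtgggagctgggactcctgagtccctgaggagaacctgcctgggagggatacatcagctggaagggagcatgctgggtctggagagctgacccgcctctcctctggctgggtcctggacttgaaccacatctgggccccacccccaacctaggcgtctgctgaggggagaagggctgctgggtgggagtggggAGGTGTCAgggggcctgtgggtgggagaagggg
CUL4B: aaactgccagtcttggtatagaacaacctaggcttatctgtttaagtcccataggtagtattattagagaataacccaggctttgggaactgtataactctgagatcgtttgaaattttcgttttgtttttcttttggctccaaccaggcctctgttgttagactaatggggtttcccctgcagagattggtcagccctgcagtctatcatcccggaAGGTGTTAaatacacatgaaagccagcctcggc

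Among the T-box genes, 4 of the 9 tested were above the controls (44.4%, against 6.55% of all tested genes) and none below. TBX4, 1 of those 4, passed the filter only through the plasmid libraries, so its place in this share was largely fixed in advance. TBX3 had 13.2, 7.72 and 9.83 CPM in the TBX5 libraries, against 1.37 to 3.32 CPM in the controls and 6.55 to 6.83 CPM with TBX4. Its log2 fold change was 2.22 (SE 0.20, edgeR adjusted p = 2.9e-07) and it did not pass the test against TBX4. TBX4 had 11, 18 and 8 counts with TBX5 and 1 count in 1 of the 6 controls, a ratio of 124 with an exact 95% interval from counting error of 21 to 5040. Libraries of the TBX3 plasmid held 135416 to 320890 counts of TBX3 and those of the TBX4 plasmid 85197 to 109159 of TBX4, the TBX2 and TBX3 libraries held 6 to 19 counts of TBX4, and whether reads of the plasmid libraries add to these low counts was not tested. TBX19 and TBX20 rose by 0.88 and 0.62, each losing the call when 1 library was left out, and TBX2 was at 3.49 ± 0.687 CPM with TBX5 (SD, n = 3) and 3.84 ± 0.578 in the controls (SD, n = 6).

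Most known cardiac, lung and limb targets of TBX5 were below the filter in these cells. Of 17 genes listed as its targets 6 passed the filter. ID2, an inhibitor of helix-loop-helix factors, was the only 1 that rose (16.7% of the 6, against 6.55% of all tested genes). It had 9.07, 8.70 and 8.35 CPM against 2.89 to 6.55 CPM (log2 fold change 0.91, SE 0.20). ID2 was also lower in EV than in Ctl cells, by -0.78, and did not pass the test against TBX4. NPPB, GJA5 and MYH6 had at most 1 count in any TBX5 or control library, NPPA at most 3 and FGF10 at most 1. NKX2-5 and GATA4, its partners, had at most 6 and 3. Of 11 tested partner proteins WWTR1 (TAZ) and TBX20 rose (18.2%, against 6.55% of all tested genes), WWTR1 by 0.36 with 96.6, 90.4 and 95.5 CPM against 64.3 to 84.7 CPM. Of 35 ion channels, transporters and sarcomere genes of heart muscle 7 were tested. ACTN2 and TTN were higher and SLC8A1 lower, by 1.00, 0.26 and -0.38 on the log2 scale. These shares were 28.6% and 14.3%, against 6.55% and 6.12% of all tested genes. None of the 7 passed the test against TBX4, where 0.43% of all tested genes were higher and 0.109% lower.

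By library totals the median of every list with at least 9 tested members was below 0 except that of the interferon-stimulated genes, and the list directions given here hold under TMM scaling. Developmental signalling genes moved in both directions. In the BMP and TGF-beta list, 6 of 17 tested genes were higher and 4 lower with TBX5, shares of 35.3% and 23.5% against 6.55% and 6.12% of all tested genes, and 3 of them, NOG, FSTL3 and TGFB2, were TBX5-particular. TGFB2, the ligand TGF-beta 2, had 13.3, 11.9 and 14.3 CPM against 8.09 to 10.8 CPM in the controls. As a TBX5-particular gene it lost a call with DESeq2 and with Ctl alone as the controls. It kept all 4 calls in 12 of the 18 fits with a library left out. BMP6 was higher by 0.70, the inhibitory SMAD7 by 0.86 and ID2 by 0.91. Among the lower genes were the targets ID1 and ID3, at -0.45 and -0.46.

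Of 17 tested Notch and Hedgehog genes 4 were higher (23.5%, against 6.55% of all tested genes) and none lower, all 4 of the Notch pathway. The target HES1 had 12.5, 12.1 and 8.53 CPM against 4.26 to 6.61 CPM in the controls (log2 fold change 1.01, SE 0.15, edgeR adjusted p = 0.000156), and exceeded TBX2 and TBX3 by 0.91 and 0.66. The ligand JAG1 rose by 0.49, the receptor NOTCH1 by 0.56 and the target HEY1 by 1.18, and none of the 17 passed the test against TBX4, where 0.43% of all tested genes were higher and 0.109% lower. In the WNT list 2 of 16 tested genes rose (12.5%, against 6.55% of all tested genes), ROR1 and the transcription factor TCF7. In the FGF list 3 of 10 were higher and 3 lower, against 6.55% and 6.12% of all tested genes. The receptor FGFR1 had 75.5, 80.9 and 82.9 CPM against 57.8 to 65.2 CPM, FGFRL1, a receptor without a kinase domain, rose by 0.58 and the feedback inhibitor SPRY4 by 0.29, while the ligands FGF2 and FGF5 and the inhibitor SPRY2 were lower.

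In the lipid and growth lists the genes past the test were nearly all lower. Of 31 tested sterol and fatty acid synthesis genes 21 were lower (67.7%, against 6.12% of all tested genes) and none higher, with a median log2 fold change of -0.43. INSIG1, which holds SREBP in the endoplasmic reticulum and is itself an SREBP target, had 33.6, 22.8 and 27.1 CPM against 47.3 to 75.7 CPM in the controls (log2 fold change -1.14, SE 0.15, edgeR adjusted p = 2.8e-05). SCD, the stearoyl-CoA desaturase, had 236.7, 221.9 and 236.5 CPM against 352.2 to 510.7 CPM. INSIG1 and SCD were lower in EV than in Ctl as well, by -0.55 and -0.45. By library totals 8 of the 31 passed the test. Against TBX4 none of the 31 passed the test, where 0.43% of all tested genes were higher and 0.109% lower. Against TBX3 11 were lower (4.3% of all tested genes), while against TBX2 7 were higher (5.69% of all tested genes). The list also moved between the controls, with 4 genes lower in EV than in Ctl and a median of -0.15, and against EV alone 16 were lower. Over all 15576 tested genes 16 were lower in EV than in Ctl, and 686 were lower with TBX5 against EV alone.

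Of 34 mitosis genes 17 were lower (50%, against 6.12% of all tested genes) and none higher, with a median log2 fold change of -0.17. Of 38 DNA replication genes 14 were lower (36.8%) and 1 higher, with a median of -0.12. MKI67, the proliferation antigen Ki-67, had 478.7, 485.8 and 528.3 CPM against 529.3 to 630.6 CPM (log2 fold change -0.23), and KIF23, a kinesin of cytokinesis, 108.6, 108.0 and 109.1 CPM against 126.2 to 140.5 CPM. With TBX5 c left out 6 mitosis and 3 replication genes were called lower, with TBX5 b left out 8 and 8, by library totals none, and against EV alone 5 and 7. Of 24 tested CDK inhibitors and growth-arrest genes 5 were higher (20.8%, against 6.55% of all tested genes) and 1 lower. CCNG2, a cyclin of arrested cells, had 10.8, 12.9 and 12.4 CPM against 4.07 to 7.33 CPM (log2 fold change 1.06, SE 0.16). CDKN1A, the inhibitor p21, was higher than with TBX2 and TBX3, by 0.43 and 0.61, and was 0.53 above Ctl in EV cells. No gene of these 3 lists passed the test against TBX4, a comparison with 0.43% higher and 0.109% lower over all tested genes, and their medians there were -0.06, -0.07 and 0.07.

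Several stress and immune genes differed between EV and Ctl as well. For TBX5 against the controls, the shares over all tested genes are 6.55% higher and 6.12% lower. Of all 15576 tested genes 44 were higher in EV than in Ctl, and 711 were higher with TBX5 against EV alone. With TBX5 against TBX2, 1004 (6.45%) were lower. Of 23 tested interferon-stimulated genes 4 were higher with TBX5, with a median of 0.38, but 9 were higher in EV than in Ctl, with a median of 0.34, and 2 passed the test against EV alone. Of 25 genes of the integrated stress and unfolded protein responses 6 were higher and 3 lower, and 5 were higher in EV than in Ctl. Against TBX2, 20 of the interferon-stimulated genes and 15 of the stress genes were lower with TBX5. Heat shock genes gave 1 higher and 1 lower of 15, and NF-kappaB targets 4 higher and none lower of 14. Of 30 tested immediate-early genes 7 were higher and 2 lower. FOSB, an AP-1 subunit, was at 4.54, 7.52 and 7.05 CPM against 0.395 to 1.61 CPM in the controls and rose with each other plasmid by 2.22 to 3.51, JUND was lower by -0.77, and KLF2 was TBX5-particular.

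**Figure D5:**
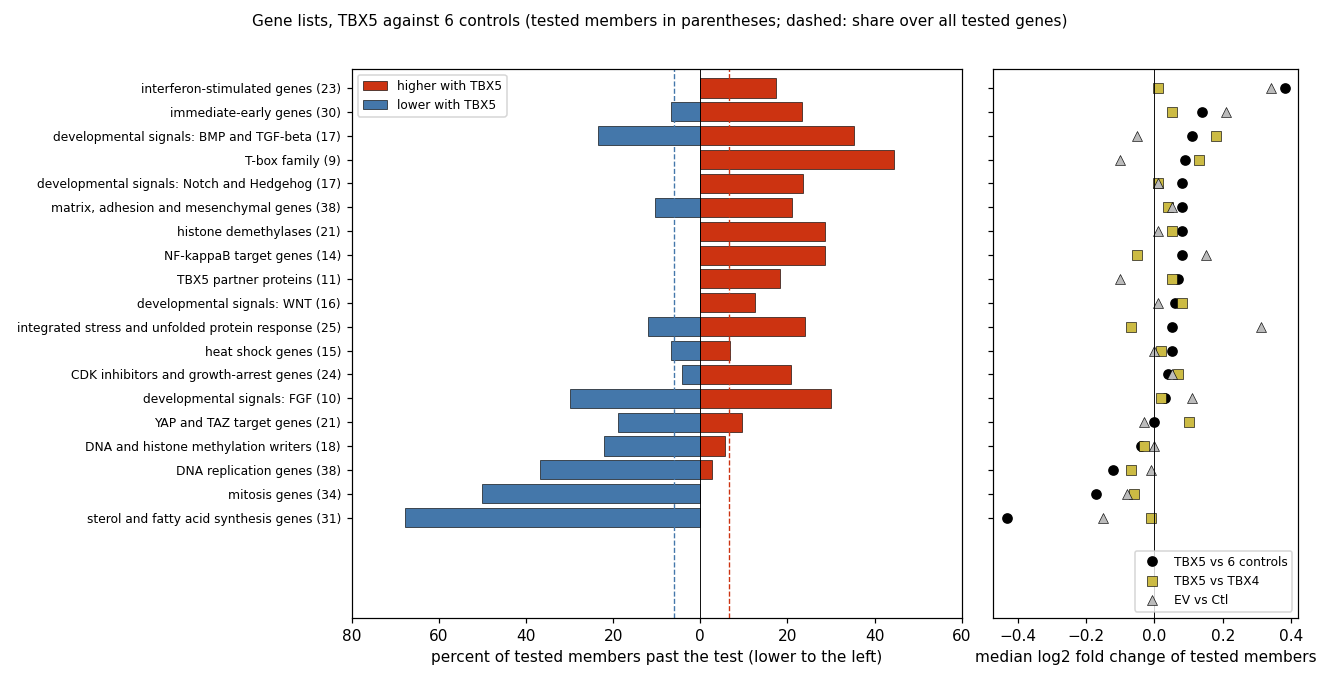
The left panel gives, for each list with at least 9 tested members, the percent of members past the test against the 6 controls (higher to the right, lower to the left), with dashed lines at the shares over all tested genes, and the right panel gives the median log2 fold change for TBX5 against the controls, TBX5 against TBX4 and EV against Ctl. Sterol, mitosis and replication genes lie on the lower side at 67.7%, 50% and 36.8%, and the squares for TBX4 stay between -0.07 and 0.18.

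The remaining lists were mixed, beside 6.55% higher and 6.12% lower over all tested genes. Of 21 tested histone demethylases 6 were higher (28.6%) and none lower, of 18 methylation writers 1 was higher (5.6%) and 4 lower (22.2%), and of 38 matrix, adhesion and mesenchymal genes 8 were higher (21.1%) and 4 lower (10.5%). FN1, fibronectin, had 49.2, 56.0 and 53.2 CPM against 34.0 to 42.4 CPM, and THBS1, thrombospondin 1, had 28.4, 23.1 and 23.4 CPM against 36.9 to 43.4 CPM. Of 21 YAP and TAZ targets 2 were higher (9.5%, near the share over all genes), IGFBP3 and TGFB2, and 4 lower (19%), among them the receptor kinase AXL with 378.2, 329.0 and 327.4 CPM against 505.4 to 574.4 CPM (log2 fold change -0.65, SE 0.06). AXL did not pass the test against TBX4. KRT8 was the only 1 of the 3 tested epithelial markers to rise, its groups overlapped, and by library totals its log2 fold change was -0.07.

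The largest changes against the controls were mostly of genes with few counts per library. After TBX4, H3C9P, a histone pseudogene, changed most with a log2 fold change of 4.46 (3.75 to 4.65 with the other plasmids), followed by NPTX1, NOG, KCNA7, FOSB, CHD5 and AFAP1L2. CHD5, a chromatin remodeller of neurons and testis, had 2.88, 4.55 and 3.90 CPM against 0.265 to 1.27 CPM. NOG, KCNA7, CHD5 and AFAP1L2 passed the filter only with their TBX5 libraries counted, so their calls were in part fixed in advance. The lowest were TBC1D8-AS1, GUCA1B, LINC01560, PRR19, LARGE2, RHOQP1, CYP24A1 and DPP9-AS1, from -1.92 to -1.23. All but CYP24A1, which inactivates vitamin D and had 0.996, 1.78 and 1.86 CPM against 3.08 to 5.03 CPM, lost the call in at least 1 of the alternatives, and none of the 8 passed the test against TBX4.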

How the data were processed

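Per the file headers and the submitters' processing notes, the deposited table holds raw read counts per Ensembl gene. The authors' paired-end reads had been aligned with STAR 2.3.0 (GRCh37) and assigned to genes by featureCounts at default settings, without strand, and the counts were deposited unnormalised. Every column was matched to a sample label. The library labelled 4c-TBX5 was taken as TBX4 by its number, and it held 85197 counts of TBX4 and 1 of TBX5.

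TBX5 was tested against the 6 controls in a fit of 9 libraries, and against each other plasmid in a fit of all 18, with edgeR 4.0.16 in R 4.3.3 (quasi-likelihood test, TMM, Benjamini-Hochberg, threshold 0.1). Named genes were the T-box genes, 15 TBX5-particular genes in each direction with a symbol and at least 1 CPM, the 8 largest changes in each direction, list members, and genes outside the filter. The comparison, the rule and the lists were chosen with earlier results of these data known. List symbols without a match were ACACA, SOD2, UHRF1 and PECAM1. Standard errors came from the log2 fold change and the F statistic. Alternatives were DESeq2, other scalings, filters, thresholds, controls, a replicate block and each library left out. The method was tested on simulated data. Intervals and floors cover counting error only. Some genes are not reported here.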

Additional observations from a re-analysis of the deposited data

Results flagged for a closer look

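Of 32 named genes, 4 had a control library far from the other 5 by the gap between the outermost value and its neighbour over the whole range, where about 1 in 20 groups passes by chance and a value over 0.625 counts. CHD5 was high in EV c at 1.27 CPM, with the other controls at 0.265 to 0.569 CPM (0.698). RHOQP1 was low in Ctl c at 0.593 CPM, with the others at 1.14 to 1.27 CPM (0.805). CYP24A1 was high in EV b at 5.03 CPM, with the others at 3.08 to 3.71 CPM (0.673). TBX4 had 0.0989 CPM in Ctl c, which is 1 count, and none in the other controls (1).

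The effect of TBX5 differed from those of all 3 other plasmids in 53 higher and 3 lower genes, by the test of each difference in edgeR. Outside the filter, the TBX5 gene at 200 CPM and ROR2 at 1.47 CPM (1.469 before rounding) were read with TBX5 and had no counts in the controls.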

How the results depend on the processing

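The 32 named genes kept their direction against the controls under every alternative run, and of the values of single genes 676 stayed on their side of the threshold and 70 lost the call. With DESeq2 1.42.0 in place of edgeR, 34 higher and 1 lower genes were TBX5-particular, 3 of the 56 having no adjusted p. By library totals the counts were 37 higher and 54 lower against the controls, 415 against TBX2, 34 against TBX3, 6534 against TBX4, and 3 and 0 particular. Under that scaling the 53 genes were above all 4 groups in 23 cases, and of the list medians above 0 only that of the interferon-stimulated genes stayed so (0.05). Without a filter, 154 genes differed from TBX4 and 6 lower genes were particular. At a false-discovery rate of 0.05 the counts were 669, 570, 1247, 739, 38, 24 and 0 in the same order, and with a log2 fold change of at least 1 they were 143, 33, 271, 119, 18, 8 and 0. With Ctl alone as controls they were 674 and 518. Chosen after seeing the data, the share of ENSG00000266658 as a covariate gave 22 genes against TBX4 and 16 and 0 particular, and TBX5 a alone gave 394, 394, 1136, 628, 19 and 12, and 2 lower particular genes. With 1 library left out in turn, the counts ranged from 592 to 989, 475 to 893, 1377 to 1919, 781 to 1229, 17 to 100, 11 to 53 and 0 to 8, with the lowest without TBX5 c for all but TBX3 (without TBX3 b) and the lower particular genes (without TBX4 a or c). The replicate letters did not pair libraries, since deviations of same-letter libraries correlated at -0.1 to 0.16, and with the replicate block 50 of the 53 higher genes passed all 4 tests.

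The effective depth of 5055388 and 5390407 counts in TBX5 b and c limits genes near 1 CPM to a few reads. Counts without strand cannot separate DPP9-AS1, with 51.8% of its exon bases under another gene, from its partner.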
